A study of Mus musculus with 22 samples.

Results

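The Zfp genes are the mouse genes whose symbol is Zfp followed by a number, most of which encode proteins with C2H2 zinc fingers. The 220 genes described here were chosen by symbol and by measured level: Zfp plus digits only, a mean of at least 5 CPM (counts scaled to a common library total) over all 22 libraries, and Zfp36 left out. The deposited table holds 374 such symbols among 49671 genes, of which 153 lay under 5 CPM and 27 had no count in any library. All 220 passed the filter on low counts and were among the 11905 genes tested, and the other 9679 tested genes that reached 5 CPM served as the background. Just inside the level limit were Zfp951 at 5.12 CPM and Zfp758 at 5.08 CPM, and just outside it were Zfp248 at 4.97 CPM and Zfp943 at 4.58 CPM. The level was taken over both groups together. The share and direction of their changes with calcitriol were named when the genes were chosen, and are given here as a description with no test of the group.

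The cells were mouse TH2 cells, T helper cells polarized towards the type 2 cytokine programme, from wild-type Balb/c mice of both sexes. Mice were obtained at 6 to 8 weeks of age and bred for 2 generations on diets holding 400, 1000 or 4000 IU of vitamin D3 per kg. In 11 libraries the cells had received calcitriol, the active form of vitamin D, at 100 nM over the final 24 hours, and in the other 11 they had received the solvent, 2% ethanol. RNA was taken on day 5 in both groups. The mouse, sex, diet and culture behind a single library are not stated, so p-values measure the spread between libraries, which may in part be technical, and an in vitro polarized population is the limit of the model.

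A C2H2 zinc finger is a short fold held by a zinc ion, and strings of such fingers bind DNA, RNA or other proteins. Many Zfp genes also encode a KRAB domain, which recruits the co-repressor TRIM28 and with it the histone methyltransferase SETDB1, and such proteins are best known for silencing transposable elements and imprinted loci. Other members carry a SCAN domain, which pairs proteins with one another, or few fingers and a role outside transcription, in splicing, ribosome quality control or mitosis.

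Libraries held between 3214171 and 20258430 counts (median 7504710). A median member held 123.5 counts in the median vehicle library and 150.5 in the median calcitriol library. All members together took 0.661% ± 0.0168 of the counts under vehicle and 0.645% ± 0.031 under calcitriol (SD, n = 11 each). Cyp24a1, the vitamin D catabolic enzyme and a direct target of the vitamin D receptor, had no count in any vehicle library and 16.6 to 75.7 CPM in the calcitriol libraries. Summed TH2 markers (Cd3e, Cd4, Gata3, Il4, Il5 and Il13) lay between 1250 and 1560 CPM under vehicle and between 1060 and 1320 CPM under calcitriol, with 1 of the 6 genes called higher (Cd3e) and 2 lower (Cd4 and Il13); their part in the changes of the Zfp genes was not tested. The summed markers of CD8 T cells, B cells, NK cells, macrophages, dendritic cells, mast cells and basophils, neutrophils and erythroid cells reached at most 9.31 CPM in any library, none of these genes was called, and Ncr1, S100a9, Hba-a1, Hba-a2 and Hbb-bt were at 0. The lowest mean of a tested gene was 1.13 CPM. Sums for NK cells, mast cells and basophils, neutrophils and erythroid cells stayed at or under 1.09 CPM, so those genes could not be called. The macrophage sum reached 0.718 CPM under vehicle and 1.19 CPM under calcitriol. In bulk RNA, fewer cells of a type and less RNA per cell cannot be told apart.

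Few of the Zfp genes changed with calcitriol, and most changes were small. By edgeR's quasi-likelihood test at a Benjamini-Hochberg adjusted p under 0.05, 36 of 220 were called (16.4%), 24 higher and 12 lower, while 184 were not called. Among the other genes of at least 5 CPM, 33.2% were called, 17.1% higher and 16.1% lower; over all genes tested the share was 31.5%. At an unadjusted p under 0.05 there were 60 members. Both calls and an absolute log2 change of at least 0.5 were found for 4 members, Zfp609, Zfp213, Zfp959 and Zfp608, which is 1.82% against 8.36% of the background. Calcitriol and vehicle libraries did not overlap for 2 members, Zfp609 and Zfp608, which is 0.909% against 4.64% of the background.

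The median log2 change of the 220 genes was 0.03, with quartiles of -0.10 and 0.16, and 129 of them (58.6%) had a value above 0. The background had a median of -0.01 and 47.4% of values above 0. The median absolute log2 change was 0.127 for the Zfp genes and 0.133 for the background, without regard to level. Direction rested on the scaling: with library totals alone in place of TMM factors, 15 members were called higher and 32 lower, the share of member calls that were higher went from 66.7% to 31.9%, and that over all genes went from 50.9% to 31.4%. Under that scaling the median was -0.04 for the members and -0.08 for the background, so the members' median stayed above that of the background while its sign turned. Changes below are on the TMM scale.

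**Figure D1:**
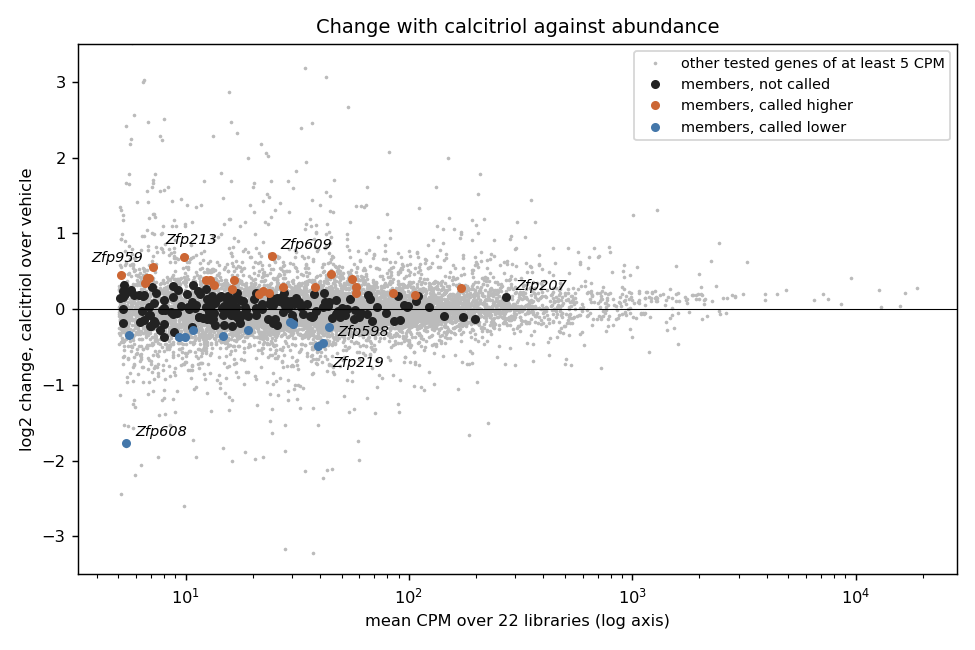
The log2 change, calcitriol over vehicle, is plotted against the mean CPM over 22 libraries (log axis) for the 220 Zfp genes (large points, coloured by call) and for other genes of at least 5 CPM (grey), of which 8 lie outside the axis limits. Most Zfp genes sit close to 0, with Zfp608 at -1.77 standing apart below and Zfp609 at 0.69 above.

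The Zfp genes were less abundant than the background, with a median of 17 against 38.7 CPM, so the shares were also set side by side within ranges of level. From 5 to 10 CPM, 10 of 51 members were called (19.6%) against 29.8% of other genes. From 10 to 20 CPM, it was 8 of 71 (11.3%) against 28.6%. From 20 to 50 CPM, it was 12 of 64 (18.8%) against 32.1%. At 50 CPM or more, 6 of 34 members were called (17.6%), all 6 of them higher, against 37.0% of other genes, 21.5% higher and 15.5% lower. In each of the 4 ranges the members' share was below that of other genes. The median absolute log2 change of members and other genes was 0.186 and 0.203 from 5 to 10 CPM, 0.115 and 0.154 from 10 to 20 CPM, 0.107 and 0.128 from 20 to 50 CPM, and 0.12 and 0.117 at 50 CPM or more. The members' value was thus the smaller in 3 of the 4 ranges. The standard errors were alike within ranges, with medians of 0.126 and 0.13 from 5 to 10 CPM and of 0.0628 and 0.0601 at 50 CPM or more for members and other genes.

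**Figure D2:**
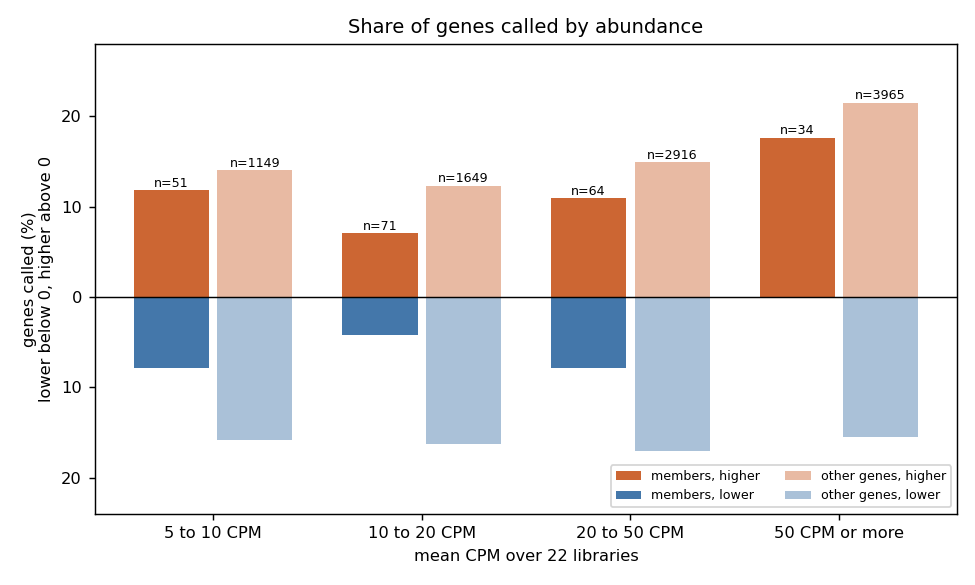
Bars show the percentage of genes called higher (above 0) and lower (below 0) with calcitriol in 4 ranges of mean CPM, for Zfp genes (full colour) and other genes (pale), with the number of genes over each bar. The Zfp bars are shorter in every range, and no Zfp gene of 50 CPM or more was called lower.

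Zfp608 and Zfp609 encode 2 related proteins that have been described as reciprocal regulators of the Rag genes in developing thymocytes, and they stood at the opposite ends of the Zfp genes. Zfp608 (chr18:54888048-54992555, minus strand, GRCm38) had a lowest, median and highest level of 5.45, 8.02 and 10.9 CPM under vehicle and of 1.08, 2.10 and 4.83 CPM under calcitriol. Every calcitriol library lay below every vehicle library. Its log2 change was -1.77 ± 0.21 (SE; edgeR's quasi-likelihood test, adjusted p = 1.59e-07). Calcitriol replicates 1 to 4, at 3.64, 4.83, 4.11 and 4.42 CPM, lay above the other 7 calcitriol libraries, which ran from 1.08 to 2.30 CPM. Those 4 replicates were among the libraries of lower total count, and so was calcitriol replicate 6, in which Zfp608 stood at 2.10 CPM. Replicate 6 had 7300768 counts, fewer than the 7379272 of replicate 1 and the 7435258 of replicate 4. By the same test, the log2 change was -1.05 in the 11 libraries of lower depth alone (adjusted p = 0.00198). In the 11 of higher depth it was -2.44 (adjusted p = 6.16e-08). The part of depth in that gap was not tested.

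Zfp609, which binds the Integrator complex and the cohesin loader NIPBL, lies at chr9:65692391-65827564 on the minus strand. Its lowest, median and highest levels were 12.5, 19.3 and 22 CPM under vehicle and 23.7, 29.98 and 34.9 CPM under calcitriol. Every calcitriol library was above every vehicle library. The log2 change was 0.69 ± 0.08 (SE; adjusted p = 2.49e-07). Per kilobase of exon, over all libraries, Zfp609 stood at 2.94 CPM and Zfp608 at 0.636 CPM.

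**Figure D3:**
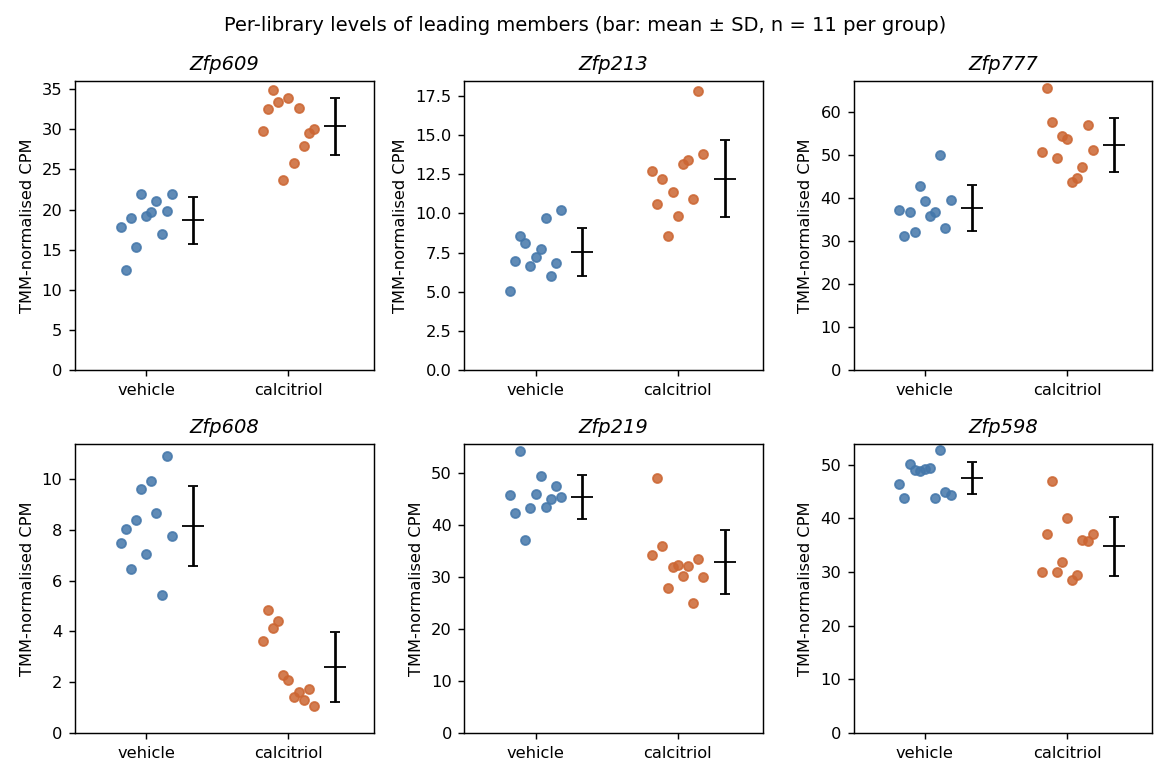
TMM-normalised CPM of 6 Zfp genes is plotted for each library, vehicle in blue and calcitriol in orange, with the mean ± SD (n = 11) as a bar beside the points; each axis starts at 0. The groups do not overlap for Zfp609 and Zfp608, and overlap by few libraries for Zfp219 and Zfp598.

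After Zfp609, the largest rise was that of Zfp213, a SCAN domain protein with 5 fingers (chr17:23556767-23564238, minus strand). It had 5.08, 7.20 and 10.2 CPM under vehicle and 8.56, 12.2 and 17.8 CPM under calcitriol (lowest, median, highest). In 9 of 11 calcitriol libraries it was above all vehicle libraries, and the log2 change was 0.69 ± 0.12 (SE; adjusted p = 5.87e-05). Its exons share 1250 bases with Gm26695 on the opposite strand, a gene not among those tested. Zfp959, a KRAB protein, had 2.05, 5.75 and 8.92 CPM under vehicle (lowest, median, highest) and 5.76, 8.41 and 11.4 CPM under calcitriol. The groups overlapped in most libraries, with 4 calcitriol libraries above all vehicle libraries, and the log2 change was 0.55 ± 0.15 (SE; adjusted p = 0.00493).

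Zfp777, a KRAB protein at chr6:48024188-48048911, had 31.1, 36.8 and 49.9 CPM under vehicle and 43.7, 51.1 and 65.4 CPM under calcitriol (lowest, median, highest). It was above all vehicle libraries in 7 calcitriol libraries, with a log2 change of 0.47 ± 0.08 (SE; adjusted p = 2.19e-05). Zfp746 lies beside it on the same strand at chr6:48062395-48086593 and encodes PARIS, a KRAB protein known as a repressor of the mitochondrial regulator PGC-1α and a substrate of parkin. It rose by 0.29 ± 0.06 on the log2 scale (SE; adjusted p = 0.000235), from a median of 52.8 to 63.9 CPM. Zfp260 rose from a median of 47.5 to 63.5 CPM, with 7 calcitriol libraries above all vehicle libraries and a log2 change of 0.39 ± 0.07 (SE; adjusted p = 4.1e-05). Zfp27, in the same gene cluster on chromosome 7, was above all vehicle libraries in 10 calcitriol libraries, with a log2 change of 0.38 ± 0.08 (SE; adjusted p = 0.000724).

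The remaining rises were of 0.18 to 0.45 on the log2 scale. Among those of the lowest level were Zfp951 (0.45, adjusted p = 0.0157), Zfp3 (0.41, adjusted p = 0.00319) and Zfp40 (0.41, adjusted p = 0.045), each with a mean of 5.12 to 6.86 CPM. Zfp606, Zfp169, Zfp873, Zfp747, Zfp422, Zfp407, Zfp513, Zfp1 and Zfp236 rose as well, by 0.21 to 0.39. Several members of known function were in this group. Zfp292, a large gene of 14 fingers at 171 CPM, had a log2 change of 0.27 (adjusted p = 0.0386). Zfp318, which in B cells governs the alternative processing of IgM and IgD transcripts, had 0.26 (adjusted p = 0.0267). Zfp644, a partner of the histone methyltransferases G9a and GLP, had 0.21 (adjusted p = 0.00343). Zfp384 had 0.20 (adjusted p = 0.0138), and Zfp263, a SCAN protein at 106 CPM, had 0.18 (adjusted p = 0.00494) with 9 calcitriol libraries above and 1 below all vehicle libraries.

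Besides Zfp608, the largest falls were those of Zfp219 and Zfp598. Zfp219, a 9-finger protein known as a SOX9 cofactor (chr14:52006077-52020733, minus strand), had 37.2, 45.3 and 54.2 CPM under vehicle and 25.03, 32.1 and 49.0 CPM under calcitriol (lowest, median, highest). All calcitriol libraries but 1 lay below the vehicle libraries, and the log2 change was -0.48 ± 0.08 (SE; adjusted p = 2.59e-05). In the libraries of lower depth alone it was -0.34 and not called (adjusted p = 0.0825). Its exons share 175 bases with those of Arhgef40 on the opposite strand, and Arhgef40 had a log2 change of -1.20 (adjusted p = 2.46e-11). The strand setting of the counting is not given in the sources used here, so reads of the overlap cannot be assigned with certainty, and the part of Arhgef40 in the fall of Zfp219 was not tested.

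Zfp598 encodes the ubiquitin ligase that marks collided ribosomes, and carries under 3 C2H2 fingers (chr17:24669687-24682016, plus strand). It had 43.8, 48.9 and 52.7 CPM under vehicle and 28.5, 35.9 and 46.9 CPM under calcitriol (lowest, median, highest). Only 1 calcitriol library reached the vehicle range, and the log2 change was -0.45 ± 0.07 (SE; adjusted p = 1.41e-05). No gene with overlapping exons is annotated for it. Zfp788 (-0.37, adjusted p = 0.0164) and Zfp944 (-0.27, adjusted p = 0.0414) were the called falls among genes in which a KRAB box was found here.

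Zfp827, which recruits the NuRD complex to telomeres, had a log2 change of -0.36 (adjusted p = 0.0178). Zfp142, of 36 fingers, also had -0.36 (adjusted p = 0.00485), and its exons share 2101 bases with Plcd4 on the opposite strand, which had -0.63 (adjusted p = 0.00309). Zfp335, which is needed for the maturation of naive T cells, had -0.20 (adjusted p = 0.0222), with 7 calcitriol libraries below and 1 above all vehicle libraries. It shares 1107 exon bases with Pcif1 on the opposite strand, whose log2 change was 0.11 (adjusted p = 0.244). Zfp974, Zfp574, Zfp180 and Zfp830, the last a splicing-associated protein, fell by 0.34, 0.28, 0.23 and 0.17 on the log2 scale. In all, exons of 56 members overlapped those of another gene on the opposite strand, and 12 of these 56 were called. Over all members the share called was 16.4%, and over the background it was 33.2%. The part of such overlap in the calls was not tested.

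**Figure D4:**
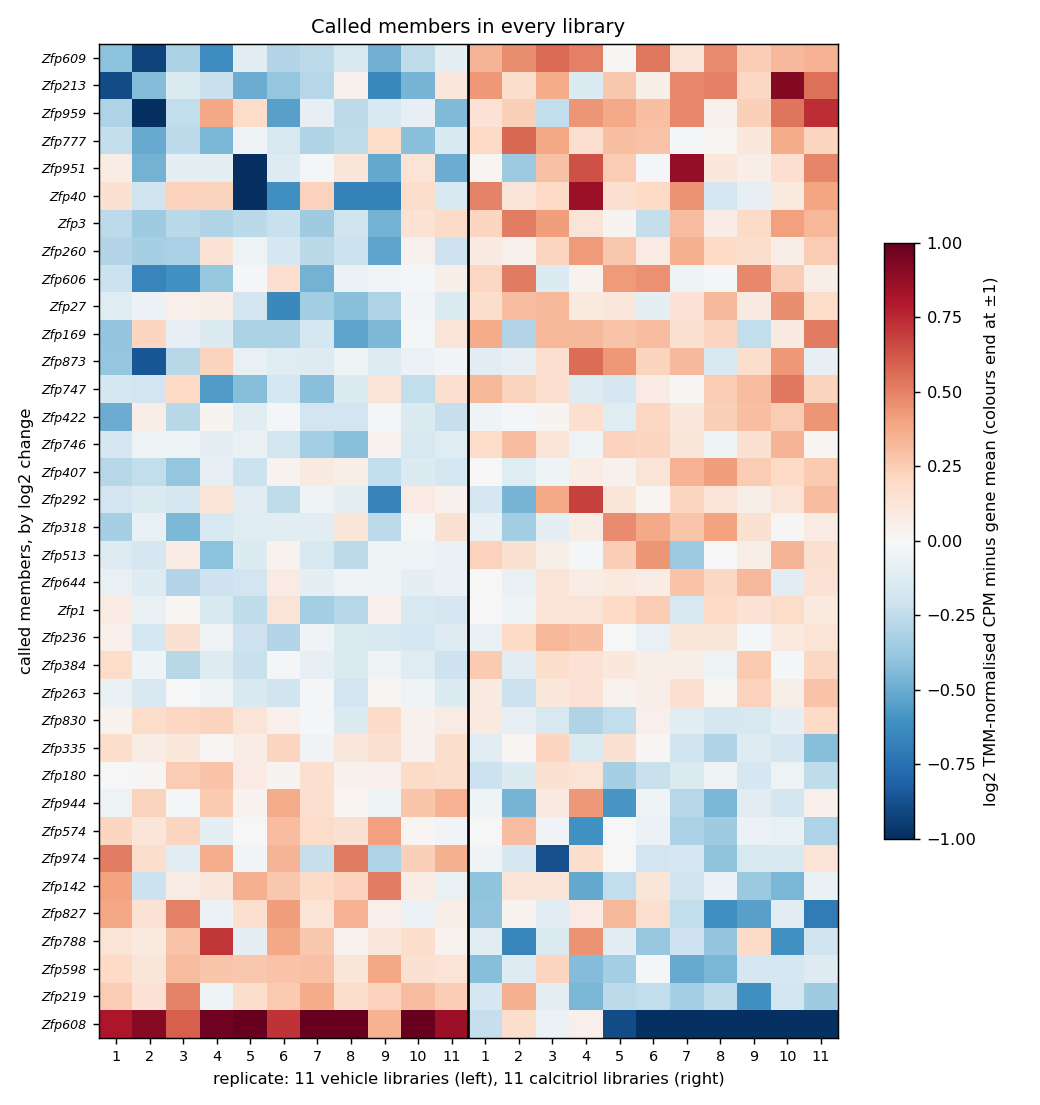
Each row is one of the 36 called Zfp genes, ordered by log2 change, and each column a library, with 11 vehicle libraries left of the line and 11 calcitriol libraries right of it; colour gives log2 TMM-normalised CPM minus the gene mean, ending at ±1. Zfp608 shows the deepest colours in both groups, and calcitriol replicates 1 to 4 are paler for it than the other 7.

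The calls depended on which libraries were used. When each of the 22 libraries was left out in turn, 6 of the 36 lost their call at least once. Zfp40 remained called in 9 fits, Zfp292 and Zfp944 in 10, and Zfp830 and Zfp974 in 11. The highest adjusted p was 0.0935 for Zfp40 and 0.0746 for Zfp292 without calcitriol replicate 4, 0.068 for Zfp830 and 0.081 for Zfp944 without calcitriol replicate 5, and 0.0792 for Zfp974 without vehicle replicate 8. Zfp318 was lost without calcitriol replicate 5 (adjusted p = 0.0579) or 8. The other 30 called members kept their calls in all 22 fits, and 0 to 9 further members gained one, the most without calcitriol replicate 1 or 2 (9 and 8). Of the 36 genes, 7 were also called in the libraries of lower depth alone, 21 in those of higher depth alone, and 27 with correlated libraries summed. Each depth subset held 5 or 6 libraries per group. In these 3 settings 15.8%, 28.9% and 24.7% of other genes were called, against 33.2% with all 22 libraries. The members' shares were 3.64%, 16.4% and 12.7%, against 16.4%. Zfp951, Zfp3, Zfp606, Zfp40, Zfp788, Zfp827, Zfp974, Zfp292, Zfp318, Zfp384 and Zfp830 were called in neither of these depth subsets. That list covers the called genes with the 10 largest rises or falls or a known role. Zfp609, Zfp213, Zfp777, Zfp260, Zfp746, Zfp598 and Zfp608 were called in all 14 other settings of scaling, filter, test and libraries.

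Of a list of 28 members with known roles, 9 were called (6 higher, 3 lower), all described above, which is 32.1% against 16.4% of all members and 33.2% of the background. These genes had a median of 47.3 CPM, above that of the members as a whole, and 19 were not called. Of all members, 18.8% were called from 20 to 50 CPM and 17.6% at 50 CPM or more. The part of level in the share of the list was not tested. Zfp207 (BuGZ), a spindle assembly factor that binds the checkpoint protein BUB3, was the most abundant at 273 CPM and also the highest per kilobase of exon at 40.9 CPM. It ran from 235 to 278 CPM under vehicle and from 223 to 374 CPM under calcitriol, so the vehicle range lay within that of calcitriol. Its log2 change was 0.16 ± 0.06 (SE; adjusted p = 0.0563), and it was called without calcitriol replicate 1, 2 or 3 (adjusted p of 0.0383, 0.013 and 0.0286). Next in level came Zfp91, a ubiquitin ligase of the non-canonical NF-κB pathway, at 197 CPM with a log2 change of -0.14 ± 0.07 (adjusted p = 0.121). Zfp106, an RNA-binding protein, followed at 174 CPM with -0.10 ± 0.05 (adjusted p = 0.121). Zfp445, a KRAB protein that maintains imprints, stood at 143 CPM with -0.09 ± 0.04 (adjusted p = 0.131).

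Other transcription and RNA regulators were not called, with log2 changes from -0.15 to 0.15. Zfp143, a promoter-binding activator, had -0.07 (adjusted p = 0.375), Zfp148 had 0.11 (adjusted p = 0.122), and Zfp281 had 0.05 (adjusted p = 0.636). Zfp217 had 0.10, Zfp592 had 0.15, and Zfp687, which works with ZFP592 and ZMYND8, had 0.01. Zfp326, a splicing factor, had 0.13, and Zfp346, which binds double-stranded RNA, had -0.09. Zfp451, a SUMO ligase, had -0.05, and Zfp622, a ribosome assembly factor, had -0.14 (adjusted p = 0.101). Zfp809, a KRAB protein that silences retroviruses through their primer binding site, had 0.02 ± 0.07 (adjusted p = 0.887). Zfp330, Zfp692, Zfp800 and Zfp131 had 0.02, 0.00079, -0.02 and -0.15. Among the named members that were not called, 4 besides Zfp207 gained a call when 1 library was left out: Zfp622 without calcitriol replicate 1 (adjusted p = 0.0442), Zfp445 and Zfp131 without calcitriol replicate 4 (0.0487 and 0.0355), and Zfp91 without vehicle replicate 9 (0.0251).

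Domains were read from the longest coding sequence of each gene, translated from GENCODE M21. A KRAB A box had to match 7 of 10 key residues, the tryptophan among them, so a variant box can be missed. Zfp213 and Zfp287 matched 6 and were counted without one. A KRAB A box was found in 111 members, which had a median level of 15.8 CPM and a median log2 change of 0.04. Of these, 11 rose and 2 fell (11.7% called). No KRAB box was found in the other 108 coding members, which had a median level of 23.8 CPM. Of these 108, 13 rose and 10 fell (21.3% called), with a median log2 change of 0.02. Among these, 84 had 3 or more fingers and no SCAN domain (9 higher, 7 lower, median 0.0043). A SCAN domain but no KRAB box was found in 6, of which Zfp213 and Zfp263 rose and none fell. Under 3 fingers were found in 18, including Zfp608, Zfp609, Zfp598, Zfp318 and Zfp830, which are the 5 of these that were called. The 4 members with both domains were not called, and Zfp783 had no annotated coding sequence. By number of fingers, 18 of 122 members with 10 or more were called (14.8%) and 18 of 97 with fewer (18.6%). Their median levels were 13.4 and 26.4 CPM. The 4 changes of at least 0.5 all lay among the members with fewer than 10 fingers. Over all members the share called was 16.4%, and over the background it was 33.2%, above the 11.7%, 21.3%, 14.8% and 18.6% given here. No difference between classes was tested.

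**Figure D5:**
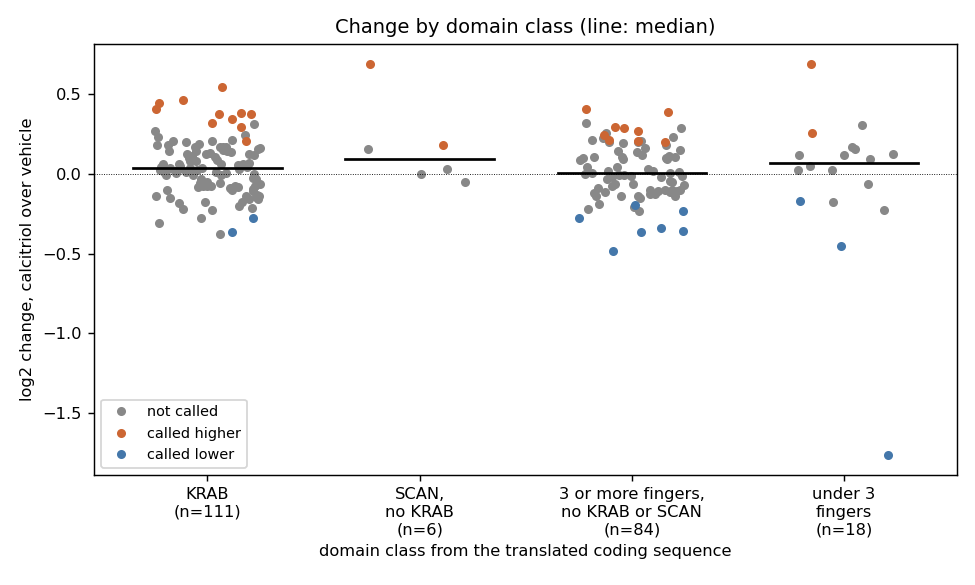
Points are Zfp genes by domain class, with the log2 change, calcitriol over vehicle, on the vertical axis, the call as colour and the class median as a line (KRAB includes the 4 genes with both domains). The KRAB medians and those of the other classes lie within 0.1 of 0. Of the 111 genes in which a KRAB box was found, 2 were called lower.

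The co-repressor genes that act with KRAB proteins were measured as a list of 31 tested genes, of which 1 rose and 4 fell (16.1% called, against 31.5% of all genes tested). Their median level was 76.8 CPM, against 28 CPM over all genes tested. Of other genes of 50 CPM or more, 37% were called. Trim28 itself, the co-repressor bound by KRAB domains, ran from 240 to 313 CPM under vehicle and from 224 to 281 CPM under calcitriol, with a log2 change of -0.11 ± 0.05 (SE; adjusted p = 0.0761). Setdb1 had -0.04 (adjusted p = 0.726). Dnmt3a, a de novo DNA methyltransferase, fell from a median of 121 to 84.3 CPM, and its log2 change was -0.44 ± 0.08 (SE; adjusted p = 6.92e-05). Chd3, a NuRD remodeller, rose by 0.39 (adjusted p = 0.00113), while Suv39h2, Hdac2 and Morc3 fell by 0.35, 0.23 and 0.22. Of other zinc finger families of at least 5 CPM, 6 of 31 Zbtb genes were called (2 higher, 4 lower), 5 of 14 Zscan and Zkscan genes (4 higher, 1 lower), 4 of 13 Zc3h genes (3 higher, 1 lower) and 1 of 8 Klf genes (lower). Zfp36, a CCCH protein that destabilizes cytokine mRNA and was left out by the rule, rose by 0.60 on the log2 scale (adjusted p = 2.16e-06).

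Zfp genes lie in clusters, and members within 500 kb of one another on a chromosome were grouped. Of the 220, 132 had such a neighbour, of which 12 rose and 4 fell, and 88 had none, of which 12 rose and 8 fell. By comparison, 16.4% of all members and 33.2% of the background were called. The difference between members with and without a neighbour was not tested, nor were their levels compared. There were 30 clusters. Chromosome 7 held 58 members and chromosome 17 held 27. The cluster at chr17:21008903-22377281 held 11 members, all with KRAB, of which only Zfp944 was called (lower). The cluster at chr7:29768552-30169750 also held 11, and Zfp27 and Zfp260 rose. On chr6:47835661-48623227, with 9 members, Zfp777 and Zfp746 rose. The neighbours Zfp40 and Zfp213 on chromosome 17 both rose. The 8 members at chr13:67121660-67755228 had a median log2 change of 0.14 and 7 values above 0, but none was called. Members of one cluster can be near-identical copies, and how reads shared between copies were counted is not stated, so their single values are less certain.

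Promoter windows of 300 bases (250 before to 50 after a transcription start, RefSeq, GRCm38.p6) were given for 186 of the 220 members, 231 windows in all. The 2 half-sites searched on both strands, AGGTCA and AGTTCA, are letters of the element bound by the vitamin D receptor. At least 1 was held by 25.5% of member windows and 27.7% of all 32851 windows. The share of windows was 34.5% (10 of 29) for members called higher, 25% (3 of 12) for those called lower and 24.2% for those not called. The 29 windows belonged to 20 of the 24 members called higher, and the 12 windows to 10 of the 12 called lower. A pair of half-sites in the same orientation with a spacer of 3 bases (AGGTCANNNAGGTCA, or AGTTCA in either place) was found in 0 member windows and in 4 of all windows (0.0122%). Member windows held a median of 16 CpG dinucleotides against 7 over all windows. Zfp609 had no window given and Zfp608 was left out of the leading genes that follow, so neither is covered there. Of the 9 windows of Zfp213, Zfp959, Zfp777, Zfp219, Zfp598, Zfp788 and Zfp827, 1 held a half-site.

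Windows of 4 leading genes are printed to show that contrast, 5′ to 3′ on the strand of the gene, with capitals marking half-sites: Zfp219 (chr14:52019664-52019963, minus strand), which holds 2, and Zfp598 (chr17:24669437-24669736, plus), Zfp213 (chr17:23564177-23564476, minus) and Zfp777 (chr6:48047745-48048044, minus), which hold none. Zfp777 is the richest in CpG of them, with 51.
Zfp219: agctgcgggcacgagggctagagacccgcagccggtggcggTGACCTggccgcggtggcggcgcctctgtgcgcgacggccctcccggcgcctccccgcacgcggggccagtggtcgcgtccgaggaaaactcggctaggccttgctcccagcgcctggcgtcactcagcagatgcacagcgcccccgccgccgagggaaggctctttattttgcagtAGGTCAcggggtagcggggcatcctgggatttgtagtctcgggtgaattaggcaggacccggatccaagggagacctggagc
Zfp598: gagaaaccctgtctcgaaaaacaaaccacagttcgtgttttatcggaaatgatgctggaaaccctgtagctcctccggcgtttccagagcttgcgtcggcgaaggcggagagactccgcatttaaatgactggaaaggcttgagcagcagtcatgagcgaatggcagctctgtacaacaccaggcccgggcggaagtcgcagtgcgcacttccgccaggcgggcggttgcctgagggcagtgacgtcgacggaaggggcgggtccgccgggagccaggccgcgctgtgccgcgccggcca
Zfp213: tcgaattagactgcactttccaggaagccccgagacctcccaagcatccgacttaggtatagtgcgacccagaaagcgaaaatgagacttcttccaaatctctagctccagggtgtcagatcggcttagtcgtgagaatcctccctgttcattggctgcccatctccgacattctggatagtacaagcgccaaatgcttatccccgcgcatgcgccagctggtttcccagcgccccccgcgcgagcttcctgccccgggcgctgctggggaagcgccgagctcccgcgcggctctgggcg
Zfp777: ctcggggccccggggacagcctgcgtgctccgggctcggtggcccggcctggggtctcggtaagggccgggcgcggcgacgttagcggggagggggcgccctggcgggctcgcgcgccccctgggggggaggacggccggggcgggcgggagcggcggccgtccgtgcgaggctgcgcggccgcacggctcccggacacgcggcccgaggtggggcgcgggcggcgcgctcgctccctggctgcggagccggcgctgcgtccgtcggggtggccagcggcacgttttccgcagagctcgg
The second Zfp219 window, at chr14:52020684-52020983, held none. A match is a match of letters only, and its absence in 300 bases says nothing about binding elsewhere.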

How the data were processed

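The authors deposited a table of raw counts per gene for 22 libraries of mouse TH2 cells, made with a stranded total RNA kit per the labels' protocols. The submitters' processing notes name STAR 2.7.10a, HTSeq 0.13.5 and GRCm38. What each tool did, whether strand was used in counting, and which annotation was used are not stated. Symbols and coordinates came from GENCODE M21. All genes were fitted with edgeR 4.0.16 (R 4.3.3): filterByExpr, TMM factors, robust quasi-likelihood F test, no covariate, Benjamini-Hochberg adjustment over 11905 genes, threshold 0.05. Levels are TMM-normalised CPM, while the 5 CPM limit used counts over library totals. The fit was tested on simulated data. Members and lists were chosen with earlier results of these data known. Named were the 10 largest rises and falls, the 5 most abundant, 28 genes of known role and genes beside the limit; the other called members are also listed. Domain classes needed 7 of 10 KRAB key residues, with the tryptophan present, or 12 of 16 SCAN key residues. They were read in translated coding sequences, since RefSeq proteins were not used here. Alternatives were other scaling, filters, DESeq2 1.42.0, limma 3.58.1 (voom), sva 3.50.0, limits of 2 and 10 CPM, subsets of libraries and leaving out each library.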

Additional observations from a re-analysis of the deposited data

How the results depend on the processing

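The count of 36 called members held within 1.5 times under other size factors, filters on low counts, DESeq2 and limma-voom (28 to 47), and between 31 and 44 when each library was left out. It became 59 (23 lower) with library quality weights, 67 (43 higher, 24 lower) with surrogate variables, where 46.5% of other genes were called, and 8 (6 higher, 2 lower) in the 11 libraries of lower depth alone, where 15.8% of other genes were called. With library totals only, 15 were higher and 32 lower and the median log2 change was -0.0367. Without vehicle and calcitriol replicates 1 and 2, which an earlier analysis had found to stand apart, 38 were called, and with correlated libraries summed to 7 sets per group 28 were called; partner genes called fell from 5 to 3 there. A limit of 2 CPM gave 44 of 272, one of 10 CPM 26 of 169, and symbols with a suffix 41 of 239. In all these settings the members' share called was below that of other genes and their median above that of other genes, by 0.021 to 0.0581. No called member changed sign; sign changes of named members called in neither setting, such as Zfp692, were counted as unchanged. Of 658 values of named genes under other settings, 57 lost a call and 20 gained one; of 1034 with a library left out, 61 and 7 did. Depth limits members near 5 CPM. No paired analysis was possible because the labels give the libraries no replicate number, mouse or culture; the numbers 1 to 11 used here only name libraries in accession order. The cause of these changes was not tested.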

Other observations

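Zfp genes under 5 CPM that passed the filter on low counts numbered 61, of which 3 were called higher and 8 lower (edgeR, adjusted p under 0.05), with a median log2 change of -0.06. That is 18% called (4.92% higher, 13.1% lower), against 25.3% (11.9% higher, 13.4% lower) of 1945 other tested genes under 5 CPM. Their level limits what can be said of single genes, and they had a median of 2.83 CPM. Zfp53, a KRAB gene of the large cluster on chromosome 17, was among the highest members per kilobase of exon at 29.2 CPM; its log2 change was 0.17 ± 0.11 (SE; adjusted p = 0.259). The spread of a member between libraries of one group had a median coefficient of variation of 13.8% under vehicle and 14.8% under calcitriol. Within each group, Zfp637 in replicates 1 and 2 stood above the other 9 libraries of that group, and Zfp706 below them; no other member did so in both groups.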
